A study of Mus musculus with 6 samples.

Results

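The 45 genes described here carry out and control the cell division cycle. They comprise 9 cyclins and cyclin-dependent kinases (CDKs), 15 genes of DNA replication, 18 genes of mitosis and 3 CDK inhibitors. They were taken by symbol from the 16131 genes of the deposited table, and all 45 were listed there once. RNA came from skin of C57BL/6 mice made diabetic with streptozotocin (STZ), a toxin of insulin-producing cells, and was taken on day 7 after wounding. Control skin was given phosphate-buffered saline (PBS) at 10 µl per day, and treated skin was given rFGF4, the recombinant form of fibroblast growth factor 4, at 100 ng/ml and the same daily volume. Each group had 3 libraries of polyadenylated RNA. Both groups were therefore diabetic and wounded, and no library of non-diabetic or unwounded skin was analysed here. Whether the 3 libraries of a group are separate animals is not stated in the labels, and the spread that enters each p-value may therefore be technical.

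Cells enter the division cycle when D-type and E-type cyclins activate their kinases and E2F factors switch on the genes of DNA synthesis. Replication origins are licensed by loading the MCM helicase, and a later wave of transcription supplies the proteins that build the spindle, separate the chromosomes and divide the cell. In skin, dividing cells are found in the basal epidermis and, during hair growth, in the matrix at the base of the follicle, while wounds add dividing keratinocytes, fibroblasts, endothelial cells and leukocytes.

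No member differed between rFGF4-treated and PBS-treated skin past the threshold, which was a Benjamini-Hochberg adjusted p under 0.05 in limma over the 14676 genes that reached 1 FPKM (fragments scaled to transcript length and library size) in 3 or more libraries. All 45 members passed that filter. Of them 0 were called higher, where 8.46% of all tested genes were, and 0 were called lower, where 3.62% were. At an unadjusted limma p under 0.05 there was 1 member, the inhibitor Cdkn1b, against 32.1% of all tested genes. The same gene was the 1 member whose groups did not overlap, against 38.2% of all tested genes. The authors' deposited table marks 14.3% of its genes as significant and 0 of the 45 members. In the authors' deposited table the smallest q-value of a member is 0.193, for Birc5.

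The median log2 fold change (rFGF4 over PBS, on log2 of FPKM plus 0.1, which understates changes of low genes) was 0.034 over the 45 members and 0.19 over all tested genes. For 28 of the 45 members the 95% interval of the difference lay within a 2-fold change in either direction. The other 17 had intervals that reached past 2-fold, the widest being that of the proliferation marker Mki67, from 0.470-fold to 2.91-fold. For those genes a difference of 2-fold was not resolved by 3 libraries a group. An alternative fit, called here the length trend removed, first subtracts from each library a smooth curve of its log2 deviations on transcript length.

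**Figure D1:**
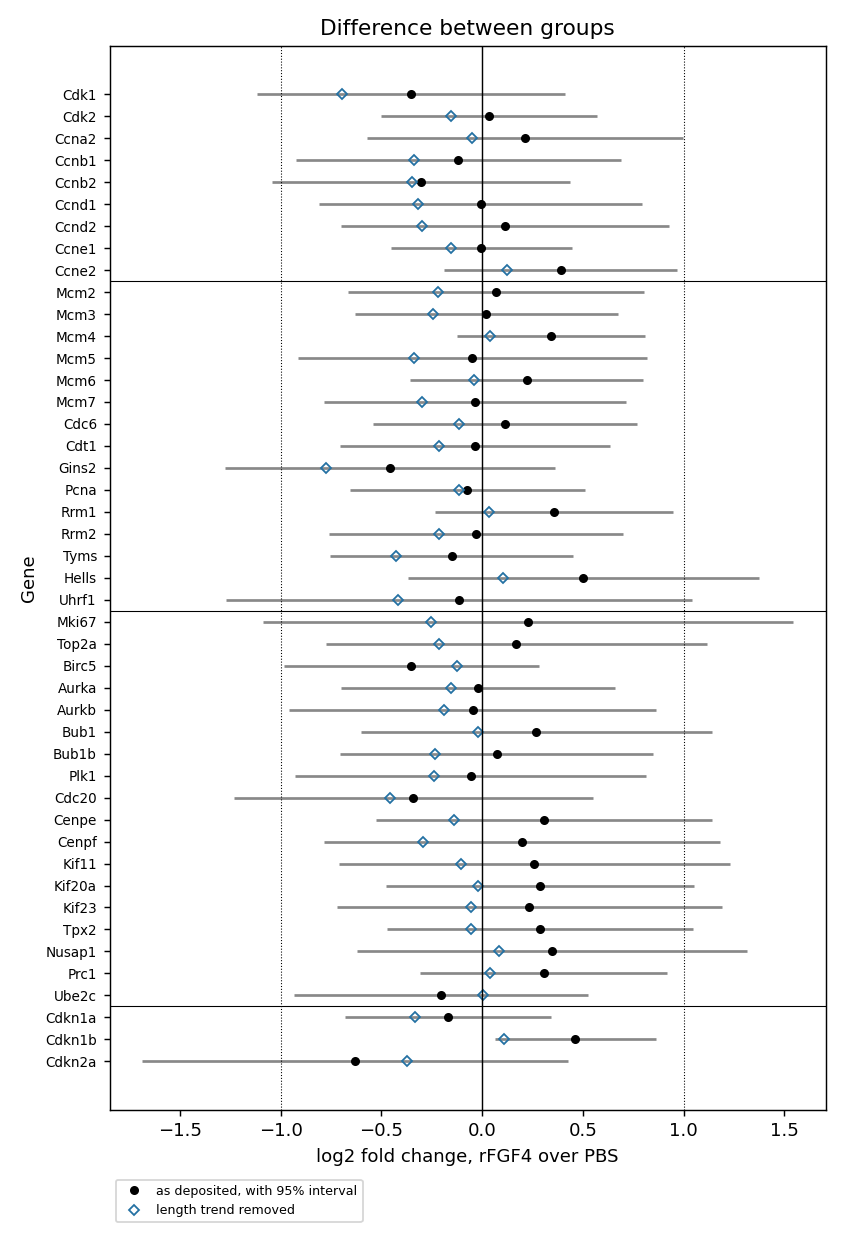
Log2 fold change of each member, rFGF4 over PBS, on log2(FPKM + 0.1), as a black point with its 95% limma interval, ordered by role, with dotted lines at a 2-fold change and open diamonds for the value with the length trend removed. The interval of Cdkn1b starts above 0, those of the other 44 members include 0, and those of most mitosis genes are wider than those of most replication genes.

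These genes varied widely between libraries of the same group. Among the 42 members other than the CDK inhibitors, PBS replicate 2 was the lowest PBS library for 42 of 42, where it was the lowest for 47.4% of all tested genes. PBS replicate 1 was the highest PBS library for 39 of 42, against 45.7% of all tested genes. In the treated group, rFGF4 replicate 3 was the lowest for 40 of 42, against 38.4% of all tested genes, the 2 exceptions being Cdk1 and Ccne1. rFGF4 replicate 2 was the highest treated library for 34 of 42, against 42.0% of all tested genes.

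Each group thus held at least 1 library high in these genes and 1 library low in them. The median deviation of the 42 members from their own mean over the 6 libraries was 0.30, −0.41 and 0.0061 (log2) in PBS replicates 1 to 3 and 0.26, 0.45 and −0.60 in rFGF4 replicates 1 to 3. Taken over the 6 libraries, 31 of the 42 members were lowest in rFGF4 replicate 3, which was the lowest library for 11.5% of all tested genes. The median within-group SD of the 42 members was 0.489 (log2), and all 42 lay above the median over all tested genes of 0.223.

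**Figure D2:**
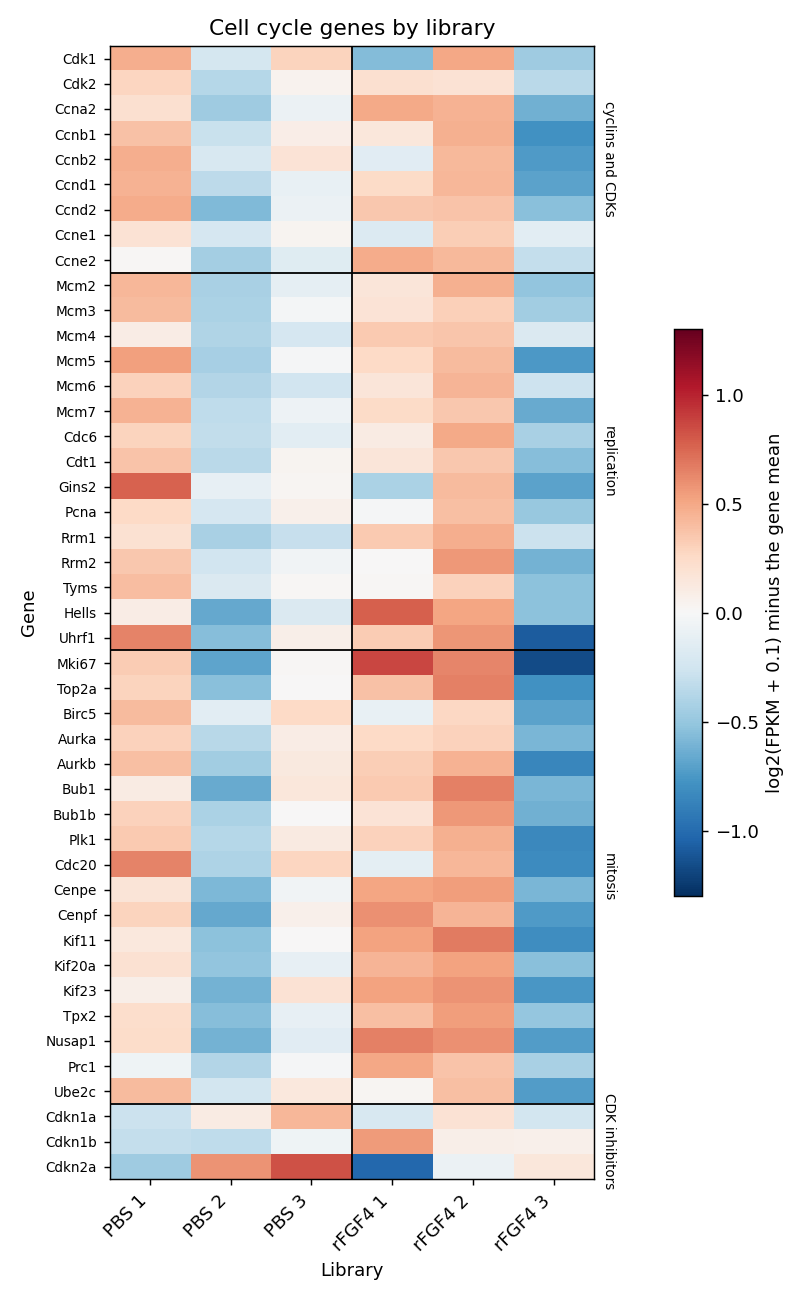
Deviation of each member's log2(FPKM + 0.1) from its own mean over the 6 libraries, members in rows by role and libraries in columns. Of the 42 members other than the 3 CDK inhibitors, 42 lie below their mean in PBS replicate 2 and in rFGF4 replicate 3, and 41, 35 and 42 lie above it in PBS replicate 1, rFGF4 replicate 1 and rFGF4 replicate 2.

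The summed level of markers of the hair matrix and hair shaft followed the same order of libraries. Of the 11 markers 10 were listed and none was at 0 in any library, while Krt85 was not listed. Their summed level was 630.9, 270.8 and 337.7 FPKM in PBS replicates 1 to 3 and 460.8, 674.8 and 56.1 FPKM in rFGF4 replicates 1 to 3. The order of libraries, from rFGF4 replicate 2 at the top through PBS replicate 1, rFGF4 replicate 1, PBS replicate 3 and PBS replicate 2 to rFGF4 replicate 3, was that of the 42 members' summed level. The sum of the mitosis genes alone differed, with rFGF4 replicate 1 (269.2 FPKM) above PBS replicate 1 (261.5 FPKM). Hair was 1 of several marker lists examined. The others, including T cell, endothelial, skeletal muscle, adipocyte and erythroid precursor markers, had other orders. Shh, a signal of the growing follicle's matrix, was at 0.187 FPKM in rFGF4 replicate 3 and between 1.82 and 18.8 FPKM in the other 5 libraries. Of the 10 hair markers, 8 were lowest in rFGF4 replicate 3, and the hair keratins Krt31 and Krt33a were lowest in rFGF4 replicate 1. Gene by gene, Msx2, Lef1, Krt25 and Krt71 kept the order of the summed level, and the other markers did not. Krt31 and Krt33a were highest in PBS replicate 2, at 16.7 and 8.01 FPKM. Shh was highest in rFGF4 replicate 1 and Dlx3 in PBS replicate 1.

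Epidermal markers, 9 of 9 listed and all above 0, summed to between 2411 and 7711 FPKM in PBS and between 2993 and 4395 FPKM in rFGF4, in another order, with all 9 lowest in PBS replicate 3. Myeloid markers, 8 of 8 listed and all above 0, summed to between 1008 and 4046 FPKM in PBS and between 967.9 and 2187 FPKM in rFGF4. A sum is carried by its most abundant genes. By gene, 7 of the 9 epidermal and 6 of the 8 myeloid markers had positive log2 fold changes. Their medians were 0.22 and 0.37, against 0.19 over all tested genes, and 0 markers of either list were called. Fibroblast markers, 7 of 7 listed and all above 0, summed to between 2716 and 3415 FPKM in PBS and between 4897 and 5490 FPKM in rFGF4, and did not overlap. By gene, 6 of the 7 did not overlap, against 38.2% of all tested genes. As deposited 5 of the 7 were called higher, against 8.46% of all tested genes, with a median log2 fold change of 0.90. With the length trend removed 0 were called, against 2.16% of all genes, and the median was 0.51. The part of hair, epidermal, myeloid and fibroblast RNA in the members' values was not tested. In bulk skin, fewer dividing cells and less of these RNAs per cell cannot be told apart.

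**Figure D3:**
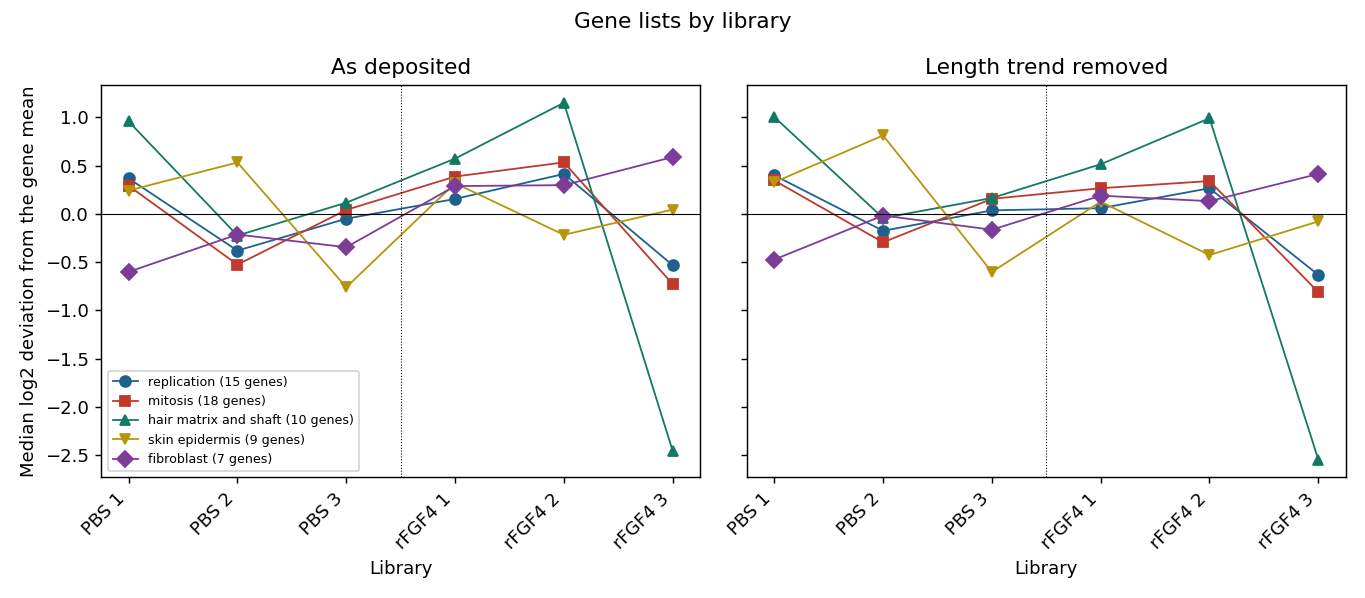
Median deviation of the listed genes from their own mean (log2) in each of the 6 libraries, for the replication and mitosis members and for markers of hair matrix and shaft, epidermis and fibroblasts, as deposited (left) and with the length trend removed (right). Replication, mitosis and hair genes are lowest in rFGF4 replicate 3 in both panels, while the epidermal markers are lowest in PBS replicate 3 and the fibroblast markers highest in rFGF4 replicate 3.

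Promoter sequences are shown for 7 members because their motifs differ between the replication genes and the mitosis genes. RefSeq promoters on GRCm38.p6, from 250 bases before to 50 bases after a start, were matched by symbol for 36 of the 45 members, as 41 entries. Each run below is a stretch of that window, read 5′ to 3′ on the gene's own strand, with the motif matches in capitals. The motifs searched on both strands were the cell cycle genes homology region (CHR, TTTGAA), the CCAAT box (CCAAT) and an E2F site written as any of TTTCCCGC, TTTCGCGC, TTTGCCGC and TTTGGCGC.
Cdk1, chr10:69352913-69353052 (minus strand): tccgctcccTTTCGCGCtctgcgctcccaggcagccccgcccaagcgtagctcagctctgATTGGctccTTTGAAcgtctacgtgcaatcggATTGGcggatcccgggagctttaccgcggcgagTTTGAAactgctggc
Cdc20, chr4:118437344-118437443 (minus strand): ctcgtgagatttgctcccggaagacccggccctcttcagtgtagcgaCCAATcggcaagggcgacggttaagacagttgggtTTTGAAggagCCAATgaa
Top2a, chr11:99024190-99024289 (minus strand): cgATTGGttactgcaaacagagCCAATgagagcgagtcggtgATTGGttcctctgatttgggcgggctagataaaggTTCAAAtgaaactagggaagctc
Mki67, chr7:135716380-135716559 (minus strand): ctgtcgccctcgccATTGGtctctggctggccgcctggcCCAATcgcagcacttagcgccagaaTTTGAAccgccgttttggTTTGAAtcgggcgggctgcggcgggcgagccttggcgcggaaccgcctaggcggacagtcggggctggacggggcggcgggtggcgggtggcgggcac
Mcm6, chr1:128359706-128359825 (minus strand): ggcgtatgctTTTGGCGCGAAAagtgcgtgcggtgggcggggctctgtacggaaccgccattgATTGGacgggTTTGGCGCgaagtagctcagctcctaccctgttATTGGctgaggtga
Hells, chr19:38930890-38930989 (plus strand): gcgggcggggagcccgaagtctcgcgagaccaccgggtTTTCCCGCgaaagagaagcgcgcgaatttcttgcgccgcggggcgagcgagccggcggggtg
Cdkn1b, chr6:134920301-134920400 (plus strand): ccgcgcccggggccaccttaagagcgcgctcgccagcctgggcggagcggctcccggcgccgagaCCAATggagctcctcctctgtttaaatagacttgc
No entry was matched for Ccna2, Ccnd1, Ccnd2, Ccne2, Mcm4, Gins2, Aurkb, Kif20a and Tpx2.

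Replication and mitosis promoters carried different motifs. The CHR letters were found in 12 of 16 mitosis promoters (75.0%) and in 1 of 15 replication promoters, against 17.9% of all 32851 promoters of that length. E2F letters were found in 8 of 15 replication promoters (53.3%) and in 0 of 16 mitosis promoters, against 2.27% of all promoters. The CCAAT box was present in 14 of 16 mitosis and 11 of 15 replication promoters, against 37.4% of all promoters. The Cdk1 window holds all 3 motifs, and that of Cdkn1b holds a CCAAT box alone. Of the 100 matches in the members' promoters, 5 pairs overlap one another within an entry, as at the upstream E2F site of Mcm6. That site reads as a match on both strands. The entries of Prc1 overlap and hold the same CHR and CCAAT letters, which are counted in both. A match is a description of the letters and not a shown binding site.

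None of the 9 cyclins and CDKs passed the test, and their log2 fold changes, 4 positive and 5 negative, had a median of −0.0033. Cdk1, the kinase that drives entry into mitosis, was at 13.8, 8.41 and 12.1 FPKM in PBS replicates 1 to 3 and at 6.65, 14.0 and 7.15 FPKM in rFGF4 replicates 1 to 3. The treated group thus held both its highest and its lowest library, and the groups overlapped. Its mean was 11.4 ± 2.75 FPKM in PBS and 9.27 ± 4.12 in rFGF4 (SD, n = 3), a log2 fold change of −0.35 ± 0.32 (SE, limma adjusted p = 0.498), the third largest negative value among the members. Of its 6 libraries Cdk1 was lowest in rFGF4 replicate 1, as was the inhibitor Cdkn2a, while 35 of the 42 members other than the inhibitors lay above their own mean there.

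Ccnb1, a mitotic partner of Cdk1, was at 13.3, 8.31 and 10.9 FPKM in PBS and at 11.3, 14.1 and 5.85 FPKM in rFGF4. The lowest and the highest of its 6 libraries were both treated, and its log2 fold change was −0.12 ± 0.34 (SE, limma adjusted p = 0.845). Ccna2, which acts in S phase and at mitotic entry, had a mean of 17.4 ± 4.0 FPKM in PBS and 21.0 ± 7.87 FPKM in rFGF4 (SD, n = 3). Ccnb2, a second B-type cyclin, had a mean of 24.0 ± 5.56 FPKM in PBS and 20.1 ± 7.87 FPKM in rFGF4 (SD, n = 3), so the differences of these genes had opposite signs within the spread of the libraries.

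Ccnd1, a D-type cyclin induced by growth factor signals, was at 33.7, 19.4 and 23.0 FPKM in PBS and at 29.3, 33.3 and 15.1 FPKM in rFGF4. Ccnd2, a related D-type cyclin, was at 33.1, 15.9 and 22.5 FPKM in PBS and at 30.2, 30.7 and 16.2 FPKM in rFGF4. For both genes the groups overlapped, with PBS replicate 2 and rFGF4 replicate 3 low. The log2 fold changes were −0.0069 ± 0.34 (SE, limma adjusted p = 0.991) for Ccnd1 and 0.12 ± 0.34 (SE, limma adjusted p = 0.850) for Ccnd2.

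Ccne2, an E-type cyclin of S phase entry, had the third largest positive difference among the members. It was at 5.03, 3.65 and 4.46 FPKM in PBS and at 6.99, 6.70 and 3.99 FPKM in rFGF4, a log2 fold change of 0.39 ± 0.24 (SE, limma adjusted p = 0.320). The first 2 treated libraries lay above every PBS library, and rFGF4 replicate 3 lay among them. Without rFGF4 replicate 3 its adjusted p was 0.0885, the smallest of any member in any alternative run. Ccne1, its close relative, was the most even of the 45 genes, with its highest library 1.46-fold above its lowest. Cdk2, the kinase of the E-type cyclins, had a log2 fold change of 0.034 ± 0.22 (SE, limma adjusted p = 0.935).

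**Figure D4:**
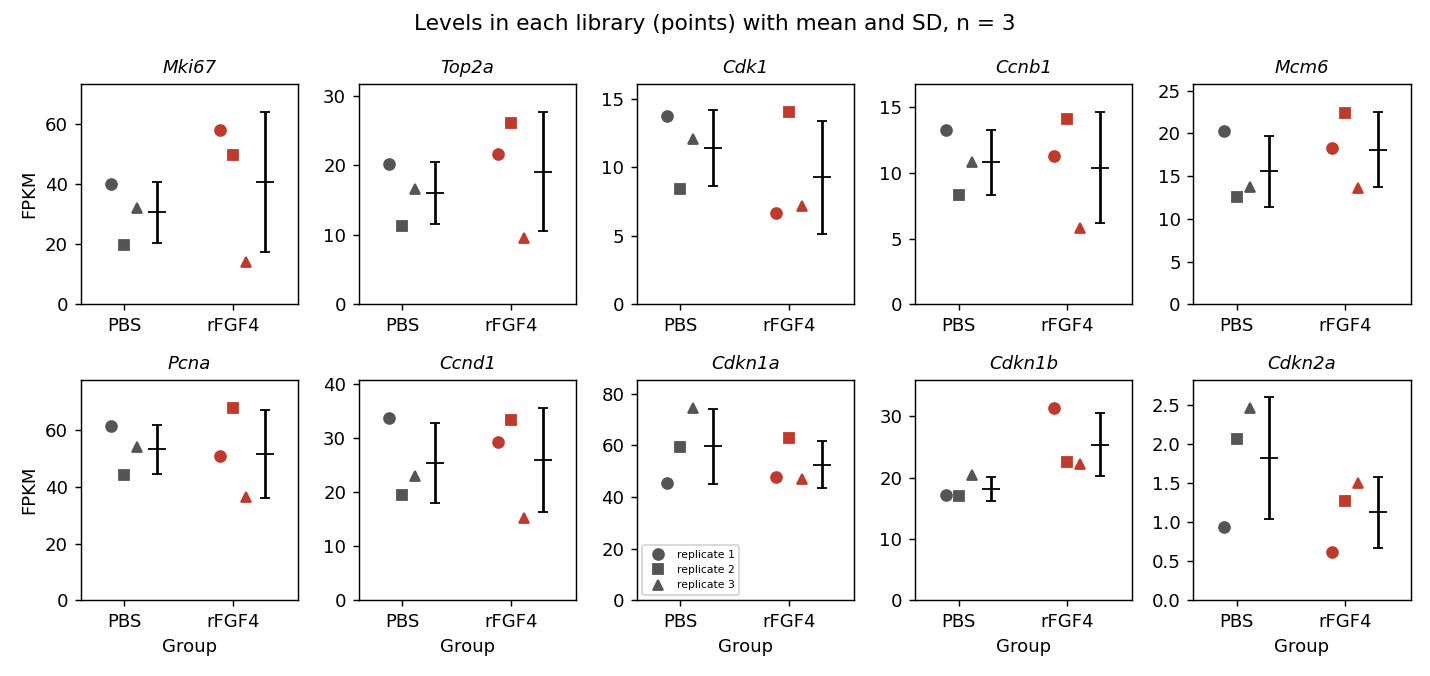
Level in FPKM of 10 members in each library, as points shaped by replicate number, with the group mean as a short line and the SD as an error bar beside them (n = 3 a group, axes start at 0). The groups overlap for each gene shown other than Cdkn1b, in which the 3 treated libraries, at 22.3 to 31.3 FPKM, lie above the PBS libraries, at 17.0 to 20.5 FPKM.

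None of the 15 DNA replication genes passed the test, and their log2 fold changes, 7 positive and 8 negative, had a median of −0.031. Within PBS, replicate 1 was the highest and replicate 2 the lowest library for 15 of 15, and within rFGF4, replicate 3 was the lowest for 15 of 15. Mcm2, a subunit of the MCM helicase, was at 9.77, 5.36 and 6.65 FPKM in PBS and at 8.04, 9.99 and 5.02 FPKM in rFGF4. Mcm6, another subunit, was at 20.3, 12.6 and 13.8 FPKM in PBS and at 18.3, 22.4 and 13.7 FPKM in rFGF4. In both, a PBS library and a treated library shared the top and the bottom of the range, and the log2 fold changes were 0.07 ± 0.31 (SE, limma adjusted p = 0.902) and 0.22 ± 0.24 (SE, limma adjusted p = 0.584). Over the 6 MCM genes measured, Mcm2 to Mcm7, the log2 fold changes ran from −0.050 for Mcm5 to 0.34 for Mcm4. The loading factors Cdc6 and Cdt1, which bring the helicase to origins, had log2 fold changes of 0.11 and −0.035.

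Pcna, the sliding clamp of DNA polymerases, was the most abundant replication member. It was at 61.5, 44.3 and 53.9 FPKM in PBS and at 50.9, 67.7 and 36.6 FPKM in rFGF4, so the treated group held both its lowest and its highest library. The log2 fold change was −0.073 ± 0.24 (SE, limma adjusted p = 0.869). How reads shared with the listed copy Pcna-ps2 were assigned is not given in the sources used here.

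Rrm2, the small subunit of ribonucleotide reductase, which makes the deoxynucleotides, was at 22.2, 14.6 and 16.8 FPKM in PBS and at 17.5, 25.7 and 11.4 FPKM in rFGF4. Its groups overlapped and its log2 fold change was −0.031 ± 0.31 (SE, limma adjusted p = 0.957). The large subunit Rrm1 had a log2 fold change of 0.36 ± 0.25 (SE, limma adjusted p = 0.374). Tyms, the thymidylate synthase, had a log2 fold change of −0.15 ± 0.25 (SE, limma adjusted p = 0.726).

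Hells, a chromatin remodelling helicase needed for DNA methylation, and Gins2, a subunit of the GINS complex of the replication fork, lay at the ends of the replication genes. Hells was at 4.76, 2.77 and 3.88 FPKM in PBS and at 7.67, 6.37 and 3.04 FPKM in rFGF4, the largest positive log2 fold change of the members, 0.50 ± 0.37 (SE, limma adjusted p = 0.395). Treated replicates 1 and 2 lay above every PBS library and replicate 3 below the PBS mean. Gins2 was at 14.0, 7.57 and 8.33 FPKM in PBS and at 6.14, 10.9 and 5.03 FPKM in rFGF4, a log2 fold change of −0.46 ± 0.34 (SE, limma adjusted p = 0.407). Its treated replicates 1 and 3 lay below every PBS library, while replicate 2 lay within the PBS range. Uhrf1, which recognises newly replicated DNA for maintenance methylation, had the widest range of the replication genes, 3.34-fold between its highest and lowest library.

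None of the 18 mitosis genes passed the test, and their log2 fold changes, 12 positive and 6 negative, had a median of 0.21, close to that of all tested genes. Mki67, the chromosome surface protein used as a marker of dividing cells, was at 40.0, 19.8 and 32.1 FPKM in PBS and at 58.1, 49.5 and 14.1 FPKM in rFGF4. Treated replicates 1 and 2 lay above every PBS library and treated replicate 3 below every one, a 4.11-fold range that was the widest of the 45 members. The mean was 30.6 ± 10.2 FPKM in PBS and 40.6 ± 23.3 FPKM in rFGF4 (SD, n = 3), and the log2 fold change was 0.23 ± 0.55 (SE, limma adjusted p = 0.816).

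Top2a, the topoisomerase that untangles sister chromatids, was at 20.2, 11.3 and 16.6 FPKM in PBS and at 21.6, 26.0 and 9.58 FPKM in rFGF4. It showed the order of Mki67 within PBS and had its lowest library in rFGF4 replicate 3. The log2 fold change was 0.17 ± 0.40 (SE, limma adjusted p = 0.810). The spindle motors and spindle proteins Kif11, Kif20a, Kif23, Tpx2, Nusap1 and Prc1 had log2 fold changes from 0.23 for Kif23 to 0.35 for Nusap1, all with intervals that include 0. Of the centromere proteins, Cenpe had a log2 fold change of 0.31 ± 0.35 (SE) and Cenpf of 0.20 ± 0.41 (SE).

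The mitosis members with negative values included the short transcripts. Birc5, the survivin subunit of the chromosomal passenger complex, had a log2 fold change of −0.35 ± 0.27 (SE, limma adjusted p = 0.413), and Cdc20, an activator of the anaphase-promoting complex, of −0.34 ± 0.37 (SE, limma adjusted p = 0.577). Ube2c, the ubiquitin-conjugating enzyme of that complex, had a value of −0.21 ± 0.31 (SE, limma adjusted p = 0.691). In the authors' deposited table Birc5 has a p-value of 0.0431 and is the 1 member below 0.05 there. The kinases Aurka, Aurkb and Plk1 lay between −0.057 and −0.020, while Bub1 and Bub1b, of the spindle checkpoint, had log2 fold changes of 0.27 and 0.072.

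Replication and mitosis genes were then set against each other within each library. The mean log2 level of the replication members minus that of the mitosis members was 0.27, 0.29 and 0.031 in PBS replicates 1 to 3 and −0.028, 0.086 and 0.34 in rFGF4 replicates 1 to 3. The groups overlapped, with means of 0.19 ± 0.14 in PBS and 0.13 ± 0.19 in rFGF4 (SD, n = 3). The difference of these means was −0.062, and −0.081 with the length trend removed, smaller than the SD of either group. The median log2 fold change of the replication genes minus that of the mitosis genes was −0.24, and −0.084 with the length trend removed. Mitosis genes varied more among the libraries of a group, with a median within-group SD of 0.562 (log2) against 0.422 for the replication genes and 0.490 for the cyclins and CDKs.

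Of the CDK inhibitors, Cdkn1b, whose product p27 holds cells in G1, came closest to the threshold. It was at 17.2, 17.0 and 20.5 FPKM in PBS and at 31.3, 22.5 and 22.3 FPKM in rFGF4. Every treated library lay above every PBS library, and rFGF4 replicate 1 stood above the other treated libraries. The mean was 18.2 ± 1.94 FPKM in PBS and 25.4 ± 5.14 FPKM in rFGF4 (SD, n = 3), a log2 fold change of 0.46 ± 0.17 (SE, limma adjusted p = 0.112, unadjusted p = 0.0288), so it did not pass the test. With the length trend removed it was 0.11 (limma adjusted p = 0.769), a correction that depends on the transcript taken, as the principal transcripts of Cdkn1b span 1757 to 4552 bases.

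Cdkn1a, whose product p21 is induced by p53, was at 45.2, 59.3 and 74.2 FPKM in PBS and at 47.6, 62.9 and 46.8 FPKM in rFGF4. Both ends of its range were PBS libraries, and its log2 fold change was −0.17 ± 0.22 (SE, limma adjusted p = 0.640). Cdkn2a, a locus of a pair of unrelated growth inhibitors with overlapping transcripts that the table gives as 1 value, was at 0.944, 2.06 and 2.46 FPKM in PBS and at 0.612, 1.27 and 1.5 FPKM in rFGF4. The groups overlapped over a 4.02-fold range, and the log2 fold change of −0.63 ± 0.44 (SE, limma adjusted p = 0.379) was the largest negative value of the members. PBS replicate 3 was the highest PBS library for all 3 inhibitors, whereas it was the highest for 3 of the 42 other members.

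Transcript length moved with the difference between the groups, in these genes as in the table as a whole. Over the 42 members other than the inhibitors, Spearman's rho between transcript length and log2 fold change was 0.505, and over 14191 genes it was 0.502. Both are given as descriptions, since the genes share the same 6 libraries. Among these 42, the 9 with transcripts of at least 4000 bases were positive in 8 cases with a median of 0.23, and the 7 with transcripts under 2000 bases were negative in 7 cases with a median of −0.21. These classes depend on the transcript taken. The principal transcripts of Cdk1 span 1253 to 4375 bases and those of Tpx2 3483 to 4365 bases, and the longest was used. With the length trend removed the medians of the long and the short class were −0.21 and −0.15. The median over the 45 members was then −0.19 where that over all genes was −0.020. In that fit 2.16% of all genes were called and 0 members. The signs in the mitosis genes depended on this choice. Of the 18, 12 were positive as deposited and 3 with the length trend removed, and their median moved from 0.21 to −0.13. Median-centring the libraries, which moved the median of all genes from 0.19 to 0.014, gave medians of −0.21 for the replication genes and 0.031 for the mitosis genes.

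**Figure D5:**
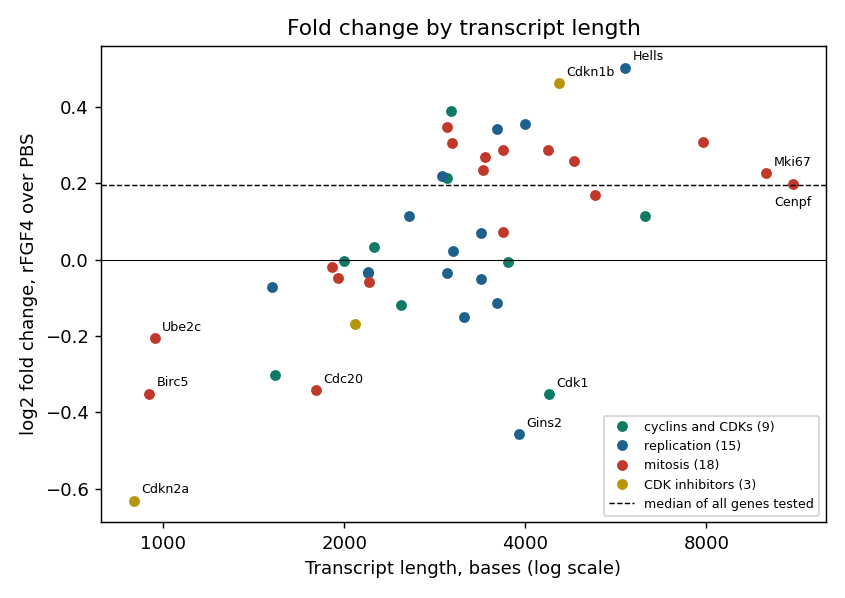
Log2 fold change of each member, rFGF4 over PBS, against transcript length in bases on a log axis, coloured by role, with the median of all tested genes as a dashed line. Leaving out the 3 inhibitors, the 7 members under 2000 bases lie below 0 and 8 of the 9 members of at least 4000 bases lie above it.

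Other genes of the same pathways gave few calls. Of 47 further replication genes 2 were called higher (4.26%, against 8.46% of all tested genes) and 0 lower, and the median log2 fold change was 0.069. An unadjusted limma p under 0.05 was found for 3 of them, or 6.38%, against 32.1% of all tested genes. The 2 called higher were Orc4 and Orc3, subunits of the origin recognition complex. Orc4 was at 4.76, 4.35 and 4.79 FPKM in PBS and at 7.67, 6.5 and 6.74 FPKM in rFGF4, a rise of 0.58 ± 0.12 (log2, SE, limma adjusted p = 0.0330), and Orc3 rose by 0.68 ± 0.16 (limma adjusted p = 0.0429). Neither call held in any of the fits that left out 1 library. Orc5, of the same complex, had a log2 fold change of 0.45 (limma adjusted p = 0.113, unadjusted p = 0.0294). Pold3, a subunit of DNA polymerase delta, was at 0.27 (limma adjusted p = 0.251).

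Among 50 tested of 51 further mitosis genes 0 were called higher and 1 lower (2.0%, against 3.62% of all tested genes), with a median of 0.10. The gene that fell was Cks2, a small subunit that binds CDKs. Cks2 was at 44.6, 32.8 and 43.8 FPKM in PBS and at 17.1, 26.7 and 12.7 FPKM in rFGF4, with every treated library below every PBS library. The change was −1.15 ± 0.28 (log2, SE, limma adjusted p = 0.0452), on a transcript of 692 bases, and with the length trend removed it was −0.74 (limma adjusted p = 0.196). Of the 6 fits that left out 1 library, the call held in that without rFGF4 replicate 2 (adjusted p = 0.0222). Zwint, a kinetochore protein, had a log2 fold change of 0.37 (limma adjusted p = 0.0642), Anln, a scaffold of the contractile ring, of 0.61 (limma adjusted p = 0.101), and Pttg1, securin, of −0.45 (limma adjusted p = 0.0909).

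Of 32 regulators of G1 and cell cycle transcription factors 1 was called higher (3.12%, against 8.46% of all tested genes) and 0 lower, and the median was 0.27. An unadjusted limma p under 0.05 was found for 9 of them, or 28.1%, which is below the 32.1% of all tested genes. Rbl2, the p130 pocket protein that represses E2F targets in resting cells, was at 5.00, 4.81 and 5.6 FPKM in PBS and at 8.74, 7.70 and 8.20 FPKM in rFGF4. It rose by 0.67 ± 0.12 (log2, SE, limma adjusted p = 0.0230), a call that also held without rFGF4 replicate 2 (0.0448) and in none of the other fits that left out 1 library. The related pocket protein Rb1 had a log2 fold change of 0.78 (limma adjusted p = 0.0560). Wee1, a kinase that restrains mitotic entry, was at 0.74 (limma adjusted p = 0.0541). The growth regulator Myc was at 0.52 (limma adjusted p = 0.0614). In the length-corrected fit Rbl2 was at 0.30 and Rb1 at 0.42, and 0 genes of the 4 pathway lists were called.

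Of 16 genes of p53 and its targets 0 were called in limma, and the median was 0.12. An unadjusted p under 0.05 was found for 5 of them, or 31.2%, close to the 32.1% of all tested genes. The 4 with the smallest p are named, and none of them passed the test. Trp53inp1, a stress-induced partner of p53, had a log2 fold change of 0.54 (limma adjusted p = 0.0560), and Ccng1, a cyclin G induced by p53, of 0.56 (limma adjusted p = 0.0915). Zmat3, an RNA-binding p53 target, was at 0.45 (limma adjusted p = 0.0800), and Mdm4, an inhibitor of p53, at 0.34 (limma adjusted p = 0.113).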

How the data were processed

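RNA from skin of STZ-diabetic mice was sequenced in 6 libraries, 3 of the PBS group and 3 of the rFGF4 group, taken on day 7. The libraries were poly(A)-selected, strand-marked and paired-end, per the labels' protocols. Per the submitters' processing notes, the tools were edgeR, StringTie, HISAT2 and fastp, in versions and roles not given in the sources used here. Those notes list GRCh38, which is human, while the symbols and the labelled organism are mouse, so the reference used is not known. Whether counting used the strand is not stated, so overlapping and near-identical genes are uncertain.

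The deposited table holds 1 value per gene and library, read as FPKM made by the authors: its header names no unit, the values are not whole, and they sum to 304717 to 319807 per library. It also holds the authors' deposited p-value and q-value, their fold (a ratio of groups) and its log2. Genes below 1 FPKM in every library are not listed (smallest maximum 1.0001) and were not analysed here. Depth is unknown, since FPKM keep no counts, so precision is known from the spread between libraries alone.

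The limma-trend test (limma 3.58.1, statmod 1.5.0, R 4.3.3; robust, two-sided, group as the term) was run on log2(FPKM + 0.1) of the 14676 genes that reached 1 FPKM in 3 or more libraries, and p-values were adjusted over all of them by Benjamini-Hochberg. No exact permutation test was run, since 3 against 3 libraries give p = 0.1 at best. Every library is given for Mki67, Top2a, Cdk1, Ccnb1, Ccnd1, Ccnd2, Mcm2, Mcm6, Pcna, Rrm2, the inhibitors, and the 3 largest positive and 3 largest negative members. Up to 4 genes of each pathway list with the smallest p are named. The members and lists were chosen with earlier results of these data known.

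Lengths are those of the longest principal transcript in GENCODE M21 (GRCm38), matched for 15482 symbols (96.0%). The length trend of each library was removed by loess (span 0.3, degree 1), leaving 14191 tested genes. Motifs were searched in RefSeq promoters on GRCm38.p6. The limma fit was tested on simulated data of independent genes. Those data had no length trend and no shifts shared by the genes of a library, so the simulation does not speak for these members. Alternatives were other pseudocounts (1, 0.01), other filters, median centring, quantile normalization, removal of the length trend, a replicate block and each library left out. No batch is given in the labels.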

Additional observations from a re-analysis of the deposited data

How the results depend on the processing

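No member was called in limma under any alternative run, and the smallest adjusted p of a member was 0.0885, for Ccne2 without rFGF4 replicate 3. In that fit 14 members (31.1%) had an unadjusted p under 0.05, close to the 29.2% of all genes tested there. The number of all genes called, 1773, was 755 with median-centred libraries, 749 with quantile normalization and 306 with the length trend removed. Leaving out 1 library gave 156 (without PBS replicate 1) to 890 (without rFGF4 replicate 2) genes, so every such fit, with fewer libraries, made fewer calls. With 1 library left out, the replication median log2 fold change, −0.031, ran from −0.22 without rFGF4 replicate 2 to 0.31 without rFGF4 replicate 3. The mitosis median, 0.21, ran in those fits from −0.060 without PBS replicate 2 to 0.61 without rFGF4 replicate 3, and was −0.13 with the length trend removed. Their difference, −0.24, ran in the same fits from −0.31 without PBS replicate 3 to −0.072 without rFGF4 replicate 1, and the cause was not tested. The contrast of mean levels within libraries was smaller, −0.062, and its groups overlapped. Members that differed in sign from the values as deposited, none of them called, numbered 18 with the length trend removed, 7 with median centring, 5 with quantile normalization and 4 to 14 with 1 library left out.

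The replicate block gave 233 called genes and 0 called members. The deviations of same-numbered libraries correlated across genes at 0.18, −0.067 and −0.13. Those of differently numbered libraries ran from −0.33 to 0.35. The labels name no shared animal, so whether the numbers pair samples is not known. The depth behind each FPKM value is unknown, and groups of 3 are too small for an outlier test.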

Other observations

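Levels of members were set against each other within each library as 9 ratios of FPKM, which were chosen after values were seen and were not tested. Ccna2 over Ccnb1 was 1.613, 1.611 and 1.615 in PBS replicates 1 to 3, although both levels differed 1.6-fold among those libraries, and it was 2.29, 1.79 and 2.05 in rFGF4 replicates 1 to 3. Ccnb2 over Ccnb1 was 2.23, 2.21 and 2.21 in PBS and 1.70, 2.01 and 2.17 in rFGF4. Cdk1 over Cenpe, a kinetochore motor, was 2.53, 2.63 and 2.57 in PBS and 0.959, 1.97 and 2.24 in rFGF4. Gins2 over Hells was 2.94, 2.73 and 2.15 in PBS and 0.8, 1.71 and 1.65 in rFGF4. In these 4 ratios the groups did not overlap, and in the other 5 they did. Among single genes, 38.2% of all tested did not overlap, and the share over other pairs of genes was not computed. Gins2 and Hells have the lowest and highest log2 fold changes of the replication genes, so that pair was chosen far apart. No conclusion is drawn from the count.

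In each of the 4 the gene with the longer principal transcript was the one with the greater share in rFGF4. The lengths were 2965 bases for Ccna2, 2489 for Ccnb1, 1531 for Ccnb2, 4375 for Cdk1, 7910 for Cenpe, 3900 for Gins2 and 5868 for Hells. Each is that of the longest principal transcript, and the principal transcripts of Cdk1 span 1253 to 4375 bases. The part of length in these ratios was not tested. In the other 5 ratios the longer gene did not always have the greater share. Mki67 over Top2a, both long transcripts, was 1.98, 1.75 and 1.94 in PBS and 2.69, 1.90 and 1.48 in rFGF4. Mki67 over the shorter Birc5 was 2.68, 1.94 and 2.38 in PBS and 5.53, 3.66 and 2.05 in rFGF4. Mcm4 over the shorter Mcm2 was 1.66, 2.15 and 1.97 in PBS and 2.39, 1.95 and 2.66 in rFGF4. Cdk1 over Cdk2, of 2240 bases, was 0.93, 0.89 and 0.96 in PBS and 0.47, 1.00 and 0.75 in rFGF4. Mcm2 over the shorter Mcm6 was 0.48, 0.43 and 0.48 in PBS and 0.44, 0.45 and 0.37 in rFGF4.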
